A study of Homo sapiens with 6 samples.

Results

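The transcripts described here are the small nucleolar RNA host genes (SNHG genes) and a set of long noncoding RNAs, some of which act in the nucleus. They were measured in PANC-1 cells with and without knockdown of CD73. A gene was a member if its Ensembl identifier carries a symbol made of SNHG and a number, which 27 rows did, or if it was 1 of 21 long noncoding RNAs listed by name. Together they were 48 of the 30735 rows in each table. PANC-1 is an established human cell line from a pancreatic ductal carcinoma, grown in medium with fetal bovine serum. In 3 samples the cells were transfected with an siRNA against CD73, the ecto-5'-nucleotidase encoded by NT5E, and in the other 3 with a negative control. All 6 went through Lipofectamine 3000 transfection in serum-free medium. A single siRNA against CD73 is named in the study's methods, so the group stands for that reagent in 1 cell line, and the time from transfection to RNA extraction is not given in the sources used here. Replicates are named by the number in their labels (1 to 3).

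Long noncoding RNAs are transcripts without a long conserved reading frame. SNHG genes carry small nucleolar RNAs (snoRNAs) in their introns, and the snoRNAs guide 2'-O-methylation (box C/D) or pseudouridylation (box H/ACA) of ribosomal RNA. After splicing, the leftover exons of many host genes have a short life, because their short reading frames are translated and the transcripts are then removed by nonsense-mediated decay. Several hosts start with a C followed by a run of pyrimidines, the 5' terminal oligopyrimidine (TOP) element that ribosomal protein genes also carry. Among the listed members, MALAT1 is retained in nuclear speckles, NEAT1 is the scaffold of paraspeckles, NORAD binds the RNA-binding protein PUM2, H19 and MEG3 are imprinted transcripts, MIR22HG and MIR31HG are hosts of microRNAs, and TERC is the template of telomerase.

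The first sequences shown are transcript starts, since the start separates some of the hosts from the rest. A RefSeq start (GRCh38.p14) was found for 37 of the 48 members and 11 had no entry. The motif searched was a C at the first base followed by C or T through at least base 5, read on the strand of the gene. It was present at 7 of the 37 members (18.9%), 6 of the 23 SNHG genes and 1 of the 14 members listed by name. The share was 4.07% of all 35116 starts in the table and 19 of 32 protein-coding snoRNA hosts (59.4%), most of which encode ribosomal proteins or translation factors. The 7 members with it were SNHG4, SNHG5, SNHG12, SNHG18, SNHG19, SNHG32 and ZFAS1. In the lines below, 20 bases before the start are in lower case and the first 20 transcribed bases are in capitals. The first 4 hold the motif. The last 2, NORAD and MALAT1, do not.
SNHG5 chr6:85678714-85678753 (-): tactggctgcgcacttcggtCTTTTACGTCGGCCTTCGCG
SNHG32 chr6:31834896-31834935 (+): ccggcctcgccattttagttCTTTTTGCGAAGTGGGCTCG
SNHG12 chr1:28581854-28581893 (-): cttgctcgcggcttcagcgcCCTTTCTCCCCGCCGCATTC
ZFAS1 chr20:49278622-49278661 (+): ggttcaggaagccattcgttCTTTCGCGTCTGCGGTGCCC
NORAD chr20:36050941-36050980 (-): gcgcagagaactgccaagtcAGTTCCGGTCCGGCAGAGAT
MALAT1 chr11:65499025-65499064 (+): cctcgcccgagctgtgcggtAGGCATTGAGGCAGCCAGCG

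A single annotated start does not cover a gene with many transcripts. In GENCODE release 29 (GRCh38), 6 of 29 GAS5 transcripts and 3 of 5 SNHG6 transcripts began with the same motif although the RefSeq start of GAS5 did not, against 2.41% of all 206694 transcripts. SNHG32, with the motif at its RefSeq start, had it in 0 of 11 GENCODE transcripts, and SNHG5 in 3 of 23, SNHG12 in 4 of 17 and ZFAS1 in 3 of 10. Among the 7 members with the motif at the RefSeq start, SNHG18 was below the filter on low values and none of the other 6 differed between the treatments at p under 0.01.

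NORAD is shown because it was 1 of the 2 members that differed between the groups and because PUM2 reads a short sequence. The PUM2 motif TGTANATA (searched on the transcript strand, overlapping matches counted) occurred 15 times in its single exon of 5339 bases, a density of 2.81 per kb. Over the longest transcripts of all tested genes the density was 0.13 per kb, and 30.9% of those genes held 1 or more matches. NORAD ranked 3 by number of matches and, among genes with a transcript of 1 kb or more, 3 by density. The stretch below covers bases 2456 to 2655 of the transcript and holds 3 of the 15 matches, which are in capitals.
NORAD chr20:36048306-36048505 (-), GRCh38: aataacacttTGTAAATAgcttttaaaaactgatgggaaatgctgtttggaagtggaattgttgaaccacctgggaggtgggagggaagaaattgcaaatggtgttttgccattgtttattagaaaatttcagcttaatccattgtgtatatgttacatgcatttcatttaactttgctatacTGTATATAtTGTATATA

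Of the other members, HOTAIR had 3 matches in its longest transcript (1.24 per kb), NEAT1 had 6 in 22743 bases and KCNQ1OT1 had 9 in 91667 bases. MALAT1, GAS5 and H19 had 0. A match describes these letters and is not evidence of binding.

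**Figure D1:**
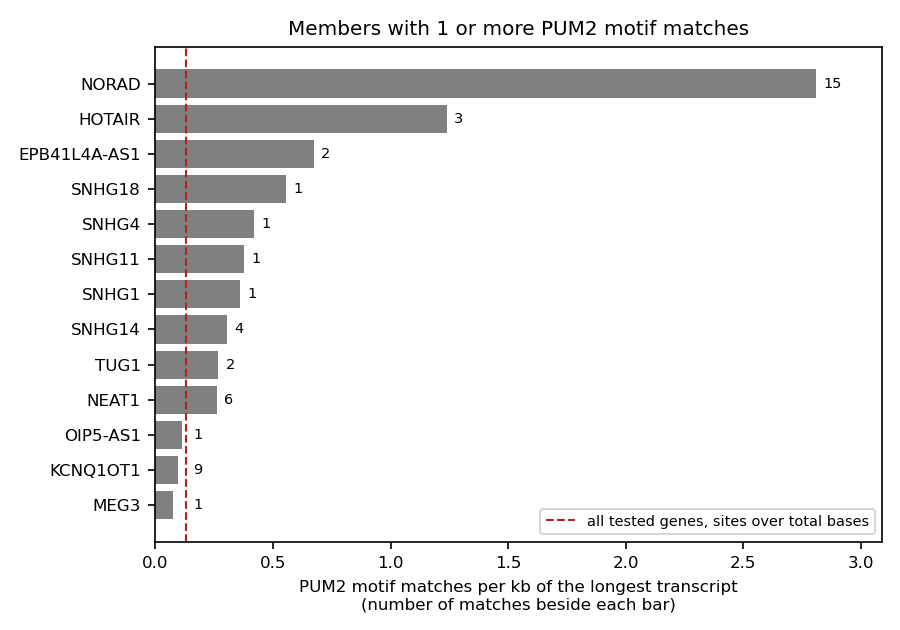
Number of TGTANATA matches per kb of the longest GENCODE release 29 transcript for the members with 1 or more matches (bars), with the number of matches beside each bar and the density over all tested genes as a dashed line. NORAD stands at 2.81 per kb with 15 matches and HOTAIR follows at 1.24.

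Levels are given as RPKM, reads per kilobase of exon and per fixed number of library reads. The annotation behind the exon lengths is not given in the sources used here, so levels of different genes compare only roughly. Library totals recovered from the tables were 15009113 to 16836207. The targeted gene NT5E had 3.36, 6.85 and 8.22 RPKM with the siRNA and 14.0, 13.9 and 17.1 without it. The groups did not overlap (log2 difference -1.23, SE 0.258, limma adjusted p = 0.303), and the unadjusted p was under 0.01. The ductal markers KRT8, KRT18 and SOX9 were at 30.0 RPKM or above in every sample, whereas KRT7 was at most 0.107 RPKM and EPCAM and CDH1 at most 1.71 and 1.69. Of the 7 genes on the ductal list, 6 passed the filter on low values, all but KRT7. KRT8 and KRT18 fell at p under 0.01, and KRT19, the remaining gene of the list, was not called. Of 8 acinar and islet markers only INS and GCG had rows, with a summed level of at most 0.0765 RPKM. Of the fibroblast, endothelial and blood list, 7 of 10 had rows and their summed level was 9.08 to 16.4 RPKM in the knockdown and 10.7 to 19.4 in the controls, nearly all of it COL1A1. The part of these markers in the results below was not tested, and in bulk samples fewer cells of a kind and less RNA per cell cannot be told apart.

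The members covered a wide range. The mean over the 6 samples was at least 10 RPKM for 16 members, between 1 and 10 for 21 and under 1 for 11. H19 was highest, at 261, 279 and 129 RPKM in the knockdown and 368, 273 and 113 in the controls. MALAT1 followed at 47.3, 73.6 and 47.0 RPKM against 44.3, 55.0 and 61.2, and NORAD came next. The order of MALAT1 and NORAD was not the same in every sample, since NORAD was higher in 2 of the 3 knockdown samples. SNHG32, GAS5, MEG3 and SNHG1 followed, and their ranges over samples overlapped. SNHG32 was the highest of the SNHG genes, with means of 28.2 ± 6.37 and 29.1 ± 4.61 RPKM (SD, n = 3). NEAT1, measured over a merged exon length of 22767 bases, was at 6.19 to 11.6 RPKM. HOTAIR, transcribed from the HOXC cluster, was at 8.53 to 12.5 RPKM, whereas HOTAIRM1 from the HOXA cluster was at 0.208 to 0.873.

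**Figure D2:**
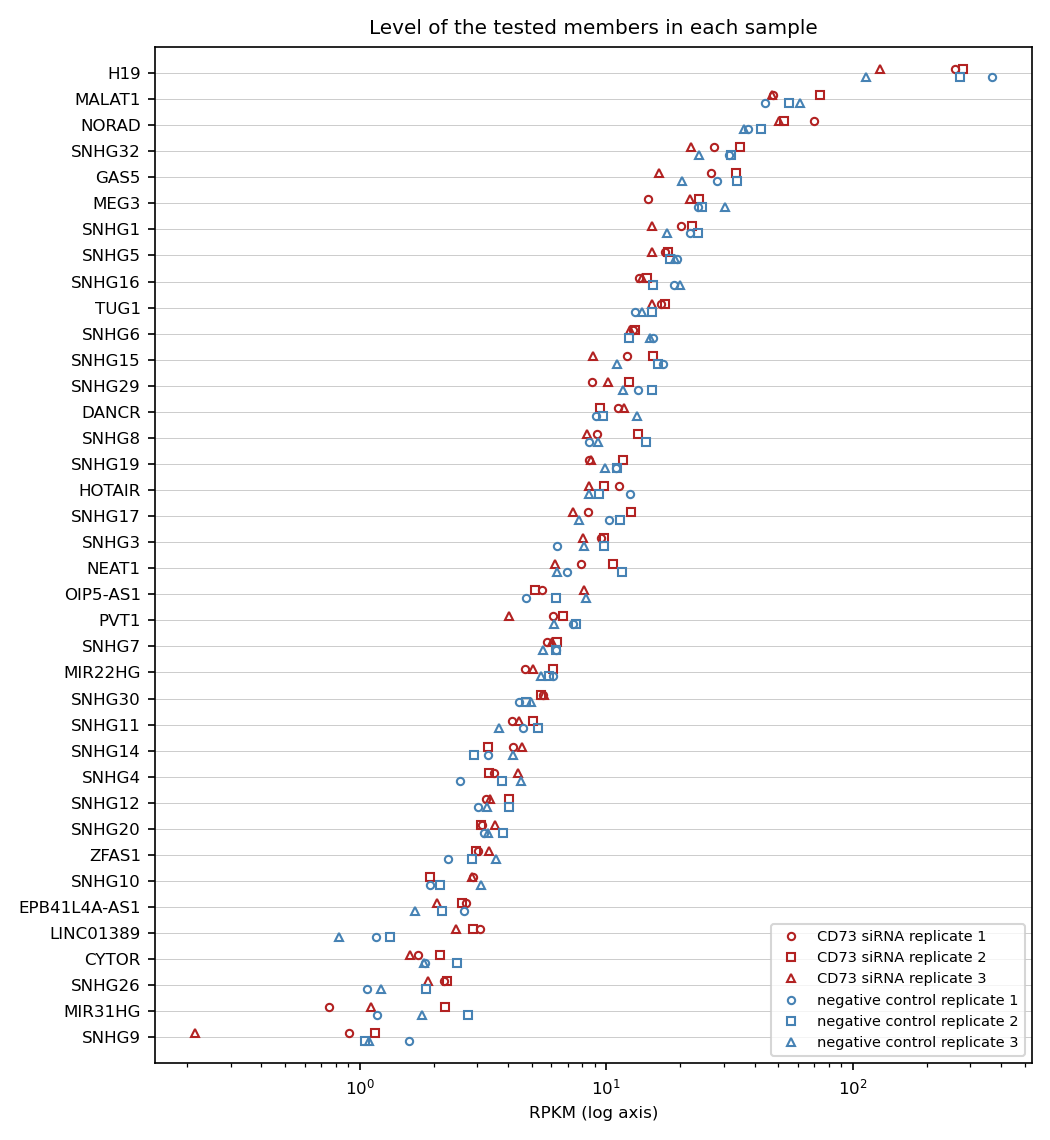
RPKM on a log axis for the 38 members that passed the filter, 1 symbol per sample, with knockdown in red, control in blue and the replicate number given by the shape. H19 spans 113 to 368 RPKM, and for most members the red and blue symbols are mixed while triangles (replicate 3) often lie apart from squares (replicate 2).

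Another 10 members were below the filter of at least 1 RPKM in at least 3 samples and were not tested across genes. UCA1, SNHG18 and SNHG25 were listed at 0 in 5 samples and had a value only in negative control replicate 3. TERC was listed at 0 in 5 samples and at 0.220 RPKM, 2 reads, in CD73 siRNA replicate 3. In the annotation 81.0% of the TERC exon is also covered by another telomerase RNA entry on the same strand. The low TERC values are therefore not read as absence of the RNA. The other 6 were HOTAIRM1, KCNQ1OT1, SNHG21, SNHG22, SNHG28 and SNHG31. Their levels were between 0 and 0.873 RPKM. SNHG31 and SNHG21, picked out after their values were seen, did not overlap between the groups. SNHG31 was 0.708, 0.543 and 0.676 RPKM in the knockdown and 0.414, 0.519 and 0.442 in the controls, from 14 to 24 reads. SNHG21 was 0.118, 0 and 0.169 RPKM against 0.296, 0.306 and 0.443, from 0 to 7 reads, with 72.9% of its exon bases shared with another annotated gene on its strand. The exact two-sided permutation test gave p = 0.1 for each, the smallest value 3 against 3 samples can reach.

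The first comparison asked which members changed when CD73 was knocked down. Of the 38 tested members, 2 were called at an unadjusted limma p under 0.01, LINC01389 and NORAD, and both were higher in the knockdown. That is 5.26% of the members, against 3.13% of all 12527 genes tested, and 5.26% against 1.82% for calls in the higher direction. With only 2 members called, the share is not read as a property of the group. No member passed an adjusted p of 0.05, 5 members and 1519 genes had an unadjusted p under 0.05, and across all genes 1 gene passed the adjusted threshold. In the blocked fit, with a term for the replicate number, LINC01389 and NORAD were again the members called, against 7.57% of all genes (948 in place of 392).

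NORAD, a gene of 1 exon at chr20:36045622-36050960 on the reverse strand, was 69.9, 52.6 and 50.1 RPKM in knockdown replicates 1, 2 and 3 and 37.8, 42.5 and 36.3 in the controls. Every knockdown sample was above every control. The log2 difference on log2(RPKM + 1) was 0.54 (95% interval 0.22 to 0.87, SE 0.141, limma adjusted p = 0.303), and the means were 57.5 ± 10.8 and 38.9 ± 3.23 RPKM (SD, n = 3). Each value rested on 2911 to 5998 reads, and no other annotated gene overlaps its exon. The knockdown sample numbered 1 was apart from the other 2, and without it the difference was 0.40 and no longer past p of 0.01. The call was also lost without negative control replicate 1 (0.52) or replicate 3 (0.50), so it depends on which samples are kept. Its protein partners PUM2 and RBMX were not called at p under 0.01. PUM2 was 24.1, 27.6 and 25.7 RPKM against 29.4, 31.5 and 29.1, and every knockdown value lay below every control. RBMX was 66.7, 67.3 and 62.0 RPKM against 68.6, 68.2 and 63.4, and its groups overlapped.

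LINC01389, a long noncoding RNA gene at chr1:47380928-47408477 on the reverse strand in GENCODE release 29, was 3.09, 2.89 and 2.46 RPKM in the knockdown and 1.16, 1.33 and 0.828 in the controls. All 3 knockdown samples lay above all 3 controls. The log2 difference was 0.86 (95% interval 0.53 to 1.19, SE 0.144, limma adjusted p = 0.303). It has a merged exon length of 483 bases, and the values came from 6 to 24 reads, far fewer than for NORAD. The call held whichever sample was left out (0.76 to 0.94). LINC01389 met the filter on low values only with its knockdown samples counted, since negative control replicate 3 was at 0.828 RPKM. Its exons overlap no other annotated gene.

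In 4 more tested members the groups did not overlap although p was above 0.01. With LINC01389 and NORAD that made 6 of 38 (15.8%), against 18.4% of all genes tested. SNHG26, the host of SNORD93, was 2.2, 2.27 and 1.90 RPKM in the knockdown and 1.07, 1.86 and 1.22 in the controls (log2 difference 0.40, SE 0.157, adjusted p = 0.38), from 45 to 94 reads. SNHG30, which holds SNORD7, was 5.54, 5.45 and 5.61 RPKM against 4.44, 4.75 and 4.96 (0.19, SE 0.0994, adjusted p = 0.474). SNHG16, which holds the SNORD1 family, was 13.7, 14.7 and 13.9 RPKM against 18.9, 15.6 and 19.9 (-0.33, SE 0.115, adjusted p = 0.354). Annotated exons on the opposite strand cover 30.6% of the SNHG16 exon bases, and since the strand setting of the counting is not given in the sources used here, reads of both genes cannot be told apart. SNHG5, named because its groups did not overlap, was 17.4, 17.8 and 15.4 RPKM against 19.4, 18.1 and 19 (-0.15, SE 0.0993, adjusted p = 0.56). The nearest values, from replicate 2, differed by little. Without negative control replicate 2, SNHG16 and SNHG26 also passed p under 0.01 (differences of -0.43 and 0.54), and 4 members were called.

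**Figure D3:**
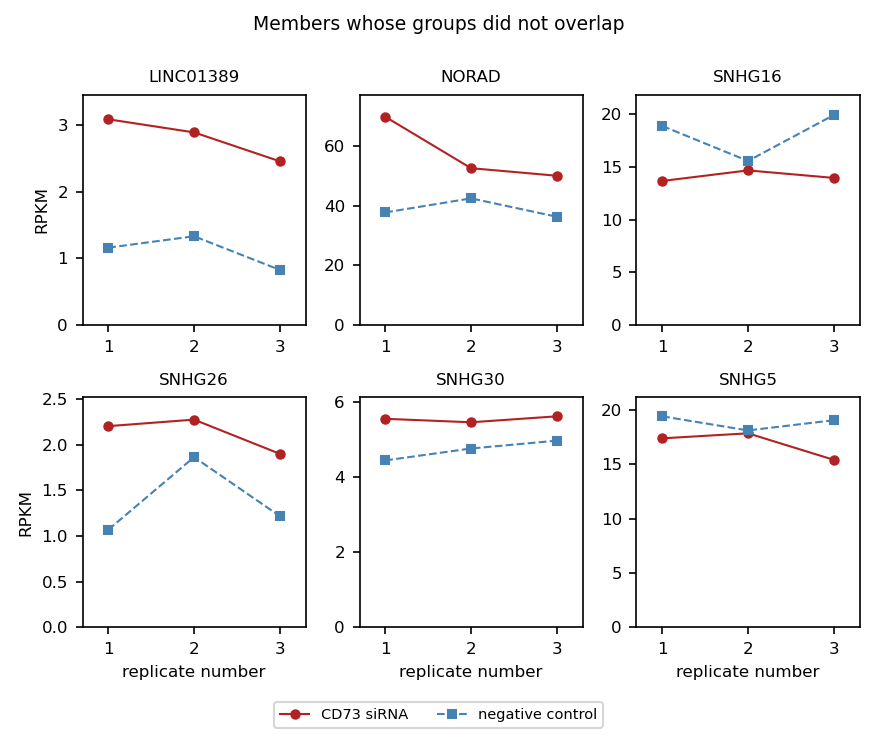
RPKM against replicate number for the 6 tested members whose groups did not overlap, with knockdown as circles joined by a solid line and control as squares joined by a dashed line. Replicate numbers are names and have no order. NORAD and LINC01389 were higher in the knockdown at each number by 0.30 or more on the log2 scale, whereas SNHG16 and SNHG5 nearly met at replicate 2.

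MALAT1, NEAT1, GAS5 and H19 did not pass the threshold. The difference of MALAT1 was 0.04 (95% interval -0.41 to 0.49), that of NEAT1 0.01 (-0.55 to 0.56), that of GAS5 -0.13 (-0.74 to 0.49) and that of H19 -0.09 (-1.12 to 0.94). MEG3 was 14.7, 23.8 and 21.9 RPKM in the knockdown and 23.6, 24.5 and 30.3 in the controls, lower at each replicate number (-0.38, interval -0.80 to 0.04). The interval was narrowest for SNHG5 and close to it for SNHG7, whose difference was 0.00054 (-0.24 to 0.24). For 19 of the 38 members the interval lay within 0.5 of 0 in both directions. These intervals come from the fit without the replicate block. With the block the SE fell from 0.445 to 0.13 for H19, from 0.266 to 0.0877 for GAS5 and from 0.241 to 0.0907 for NEAT1, and none of these was called. The median SE of the members went from 0.156 to 0.102, and 10 members in place of 5 had an unadjusted p under 0.05 (2925 genes in place of 1519).

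The other tested members also had intervals that reached 0 or nearly so. SNHG29, which holds SNORD49A, SNORD49B and SNORD65, came closest to a call among them, with 8.79, 12.4 and 10.2 RPKM in the knockdown and 13.5, 15.3 and 11.7 in the controls (-0.34, interval -0.69 to -0.00092). It was lower at each replicate number, and the groups overlapped. TUG1, a transcript that starts opposite MORC2, was 16.6, 17.3 and 15.4 RPKM against 13.1, 15.4 and 14.0 (0.20, interval -0.04 to 0.44). It was higher at each number, and its groups met at 15.4 RPKM. SNHG9, the host of SNORA78 beside RPS2, had the largest decrease among the tested members. It was 0.903, 1.15 and 0.216 RPKM against 1.58, 1.05 and 1.09, from 2 to 14 reads (-0.38, interval -0.92 to 0.15). SNHG9 met the filter on low values only with its control samples counted, so its rank by decrease is not read as a result.

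A further 11 hosts and long noncoding RNAs had differences between -0.14 and 0.17. SNHG6 was 12.5 to 13.0 RPKM in the knockdown and 12.3 to 15.5 in the controls, and SNHG19, the shortest of the tested hosts with 342 merged exon bases, was 8.55 to 11.7 against 9.94 to 11.1. SNHG3, which starts 37 bases from RCC1 on the same strand, was 8.06 to 9.82 RPKM against 6.31 to 9.81, and reads from their shared exons cannot be told apart. SNHG4, SNHG10, SNHG11 and SNHG20 had means between 2.39 and 4.54 RPKM in each group, with differences of 0.06, 0.08, 0.01 and -0.06. DANCR, a transcript tied to the undifferentiated state of progenitor cells, was 9.43 to 11.8 RPKM against 9.09 to 13.3. ZFAS1, the host of the SNORD12 family opposite ZNFX1, was 2.97 to 3.34 RPKM against 2.28 to 3.56. EPB41L4A-AS1, which hosts SNORA13, was 2.06 to 2.70 RPKM against 1.67 to 2.65, with 49.6% of its exon bases overlapped on the opposite strand. CYTOR was 1.60 to 2.11 RPKM against 1.83 to 2.48. None of these passed p under 0.01 in either fit.

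The median difference of the members was -0.04, against 0.01 for all genes tested, with 17 above 0 and 21 below. That is 44.7% above 0, against 52.0% of all genes. The direction was the same at all 3 replicate numbers in 18 members (47.4%), 8 higher and 10 lower, against 51.4% of all genes.

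**Figure D4:**
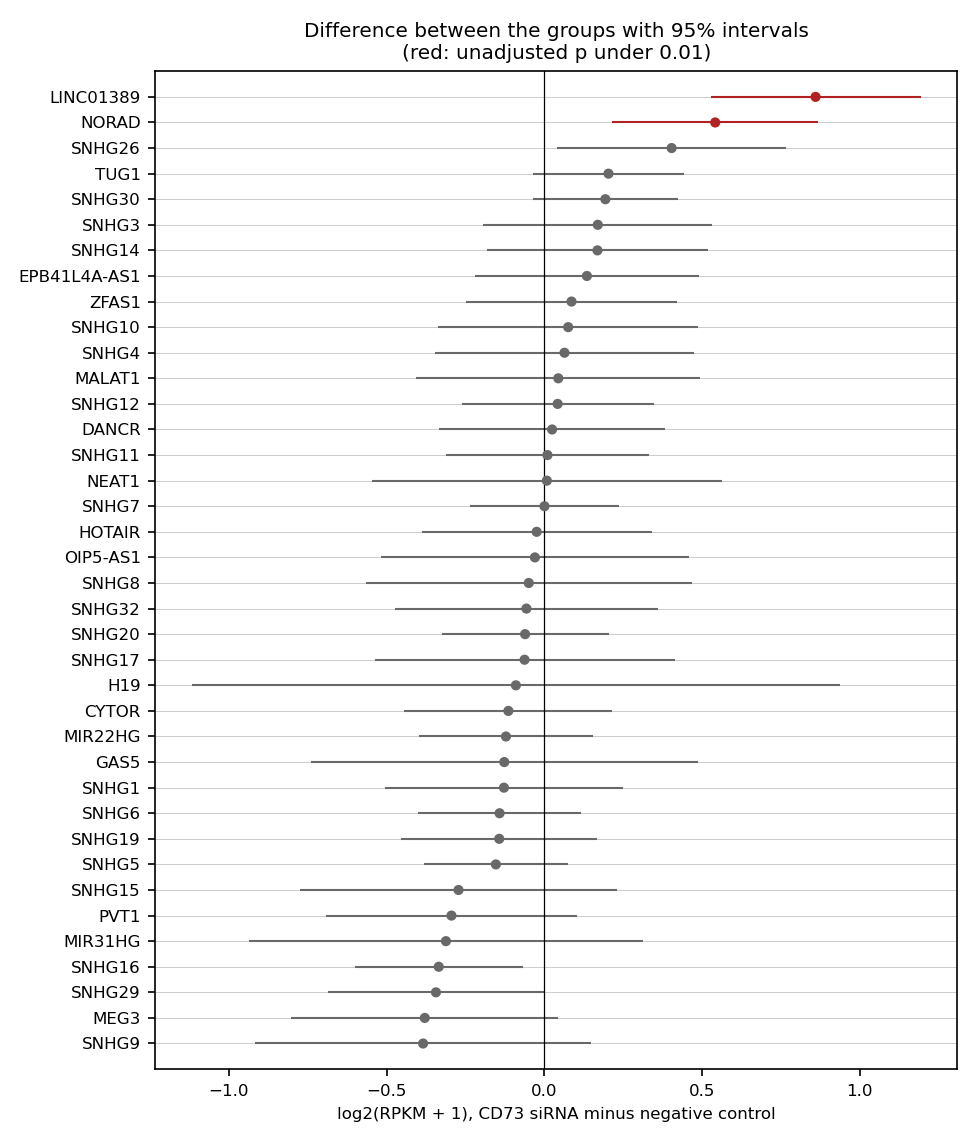
Difference in log2(RPKM + 1) between knockdown and control for the 38 tested members (points) with 95% intervals from limma (lines), in red where the unadjusted p was under 0.01. Most intervals include 0, and that of H19 is the widest, from -1.12 to 0.94.

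The second comparison was by replicate number, over both groups. It was added after the values were seen. The fit with the replicate number as a block gave an F test of the number for every gene. Of the 38 members, 10 passed p under 0.01 (26.3%), against 9.27% of all genes. They were H19, GAS5, NEAT1, SNHG8, MIR31HG, SNHG15, SNHG1, OIP5-AS1, SNHG32 and SNHG17. H19 (limma adjusted p = 0.0301) and GAS5 (adjusted p = 0.0387) also passed the adjusted threshold, which 1.82% of all genes did. The count moved with the samples, the filter, the scaling and the model, and so did the share of all genes. Without the filter on low values 6 members passed p under 0.01, against 3.05% of all genes. The lowest count, 5, came without either CD73 siRNA replicate 3 (4.0% of all genes) or negative control replicate 3 (3.95%). Without CD73 siRNA replicate 2, 6 passed (9.99% of all genes). The highest count, 14, came without CD73 siRNA replicate 1 (16.6% of all genes). H19, GAS5, NEAT1 and SNHG8 were among those called in each of these 5 fits. Without negative control replicate 2, 9 passed (7.44% of all genes), and NEAT1 and SNHG8 were not among them. With the same median set in every sample 8 passed (8.97% of all genes), and with limma without its trend 7 did (8.1%). SNHG17 and SNHG32 were called in neither, and SNHG1 was not called without the trend.

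H19 was 261 and 368 RPKM in the 2 samples numbered 1, 279 and 273 in those numbered 2, and 129 and 113 in those numbered 3. Both samples numbered 3 were below every other sample, and the treatments did not separate. GAS5, the growth arrest transcript that hosts box C/D snoRNAs, was 26.6 and 28.1 RPKM in replicate 1, 33.6 and 33.8 in replicate 2, and 16.4 and 20.4 in replicate 3, with knockdown given first. Samples with the same number lay closer to each other than to samples of their own treatment. NEAT1 was 7.92 and 6.96 RPKM in replicate 1, 10.6 and 11.6 in replicate 2, and 6.19 and 6.34 in replicate 3. SNHG1, a host of 7 annotated snoRNA genes on chromosome 11, was 20.1 and 21.9 RPKM in replicate 1, 22.3 and 23.6 in replicate 2, and 15.3 and 17.6 in replicate 3. SNHG32 was 27.5 and 31.4 RPKM in replicate 1, 34.9 and 32.1 in replicate 2, and 22.2 and 23.8 in replicate 3. In the annotation 29.1% of the SNHG32 exon bases are shared with other genes on its strand.

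The remaining 5 are named because of their p, after their values were seen. SNHG8, which overlaps SNORA24, was 8.37 to 9.31 RPKM in replicates 1 and 3 and 13.4 and 14.5 in replicate 2. SNHG15 was 8.84 and 11.1 RPKM in replicate 3 and 12.1 to 17.0 elsewhere. MIR31HG, the host of miR-31, was 0.751 and 1.17 RPKM in replicate 1, 2.22 and 2.77 in replicate 2, and 1.12 and 1.79 in replicate 3, from 9 to 32 reads. Its exons are overlapped for 40.7% of their bases by a gene on the opposite strand. OIP5-AS1, a transcript opposite the OIP5 gene, ran the other way, with 8.13 and 8.31 RPKM in replicate 3 and 4.74 to 6.28 in the others. SNHG17 was 8.41 and 10.3 RPKM in replicate 1, 12.7 and 11.4 in replicate 2, and 7.34 and 7.74 in replicate 3.

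**Figure D5:**
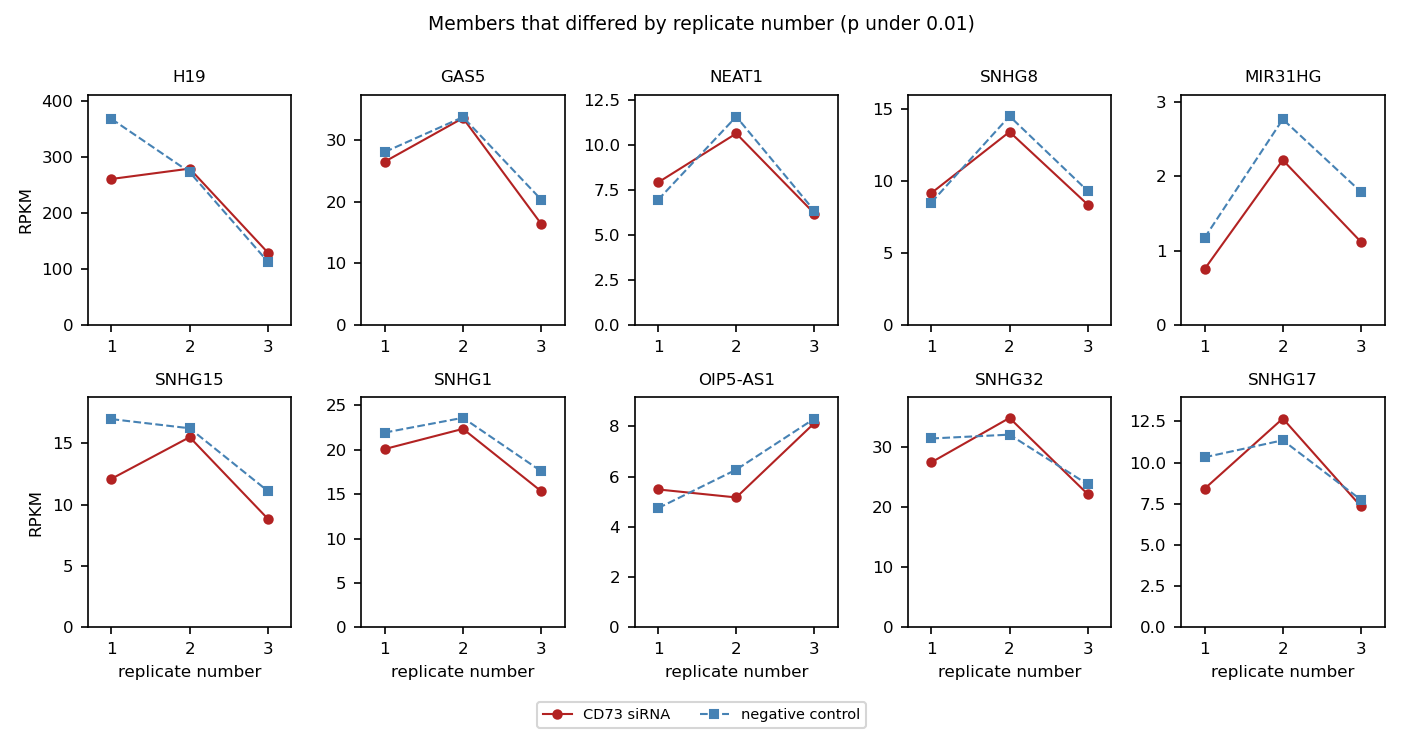
RPKM against replicate number for the 10 members with p under 0.01 for the number, with knockdown as circles joined by a solid line and control as squares joined by a dashed line. Both lines share their shape in most panels, which the choice of members by this p favours. GAS5 was 33.6 and 33.8 in replicate 2 and 16.4 and 20.4 in replicate 3.

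Over all tested members, replicate 3 was the lowest sample of both groups in 13 (34.2%), against 21.3% of all genes, and replicate 2 the highest of both in 17 (44.7%), against 22.7%. Replicate 3 was highest in both groups in 6 members (15.8%), DANCR, OIP5-AS1, SNHG14, SNHG30, SNHG4 and ZFAS1, against 17.8% of all genes. SNHG genes made up 11 of the 17 with replicate 2 highest and 4 of the 13 with replicate 3 lowest. Of the 2 members called by treatment, both had their lowest value of each group in replicate 3. What the replicate number stands for, such as a day or a passage, is not given in the sources used here. Among 40 tested protein-coding snoRNA hosts, replicate 2 was highest in both groups in 12 and replicate 3 lowest in both in 17, and 3 had p under 0.01 for the number. The difference between the members and these hosts was not tested.

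Some snoRNAs inside the members had rows of their own. SNORA71C, a box H/ACA snoRNA inside SNHG17, was picked out after its values were seen as the one with the values most like those of its host. It was 7.89 and 8.84 RPKM in replicate 1, 15.6 and 13.9 in replicate 2, and 8.42 and 7.46 in replicate 3, from 15 to 33 reads. As in SNHG17, both samples numbered 2 were the highest. The other 3 snoRNA rows inside SNHG17 did not share this. SNORA71D was listed at 0 in both samples numbered 2, from at most 4 reads elsewhere. SNORA71A was 12.3 RPKM in CD73 siRNA replicate 2 and 2.40, its lowest value, in negative control replicate 2. SNORA71B was highest in replicate 2 of the knockdown (6.31 RPKM) but in replicate 1 of the controls (5.50). The capitals mark an H box (ANANNA, searched from base 41 to base 91) and the terminal ACA (searched in the last 9 bases) on the transcript strand, which 91.2% and 86.8% of the 91 SNORA and SCARNA rows held.
SNORA71C chr20:38429670-38429803 (-), GRCh38: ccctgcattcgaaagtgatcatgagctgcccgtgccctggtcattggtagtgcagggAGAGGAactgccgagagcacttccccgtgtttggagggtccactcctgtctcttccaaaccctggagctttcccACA

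SNORD99, inside SNHG12, was 5.88, 6.01 and 8.03 RPKM in the knockdown and 0.843, 4.35 and 1.80 in the controls, from 1 to 10 reads, and was called higher. Its host SNHG12 was 3.03 to 4.05 RPKM with a difference of 0.04. Of 198 snoRNA rows, 65 passed the filter, and 6 of these 65 were called at p under 0.01, each from at most 10 reads a sample, against 3.13% of all genes. SNORD99, SNORD116-6 and SNORD73B were higher, and SNORD69, SNORD113-2 and SNORA60 were lower. SNORD99 and SNORD116-6 met the filter only with their knockdown values counted. Rows this low can pass the filter through the group where they are high, so the share is not read as a result. SNORD116-6 lies inside SNHG14 and was 5.18, 1.99 and 4.95 RPKM against 1.30, 0.671 and 1.39, whereas SNHG14 itself was 2.91 to 4.56 RPKM with a difference of 0.17 (interval -0.18 to 0.52). SNORA60 lies inside SNHG11 and was 1.86, 1.42 and 1.77 RPKM against 2.33, 2.88 and 3.98, with a difference of 0.01 for the host. In these pairs the small RNA row was called and the host was not, and the difference within a pair was not tested. Reads from a snoRNA and from unspliced host RNA over the same bases cannot be told apart.

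The microRNAs of 3 members are shown for their seeds (bases 2 to 8, in capitals), although the values given are those of the host transcripts. Of the microRNA genes, MIR31 had a row of its own, at 0.876, 3.58 and 0.837 RPKM in the knockdown and 1.76, 0.907 and 0.938 in the controls, from 1 to 4 reads. The seeds are all different, so none of these microRNAs share a seed family.
hsa-miR-22-3p (in MIR22HG): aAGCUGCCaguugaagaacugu
hsa-miR-22-5p (in MIR22HG): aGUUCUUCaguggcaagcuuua
hsa-miR-31-5p (in MIR31HG): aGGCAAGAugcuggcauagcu
hsa-miR-675-3p (in H19): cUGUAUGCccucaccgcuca
hsa-miR-675-5p (in H19): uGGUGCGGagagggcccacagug

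MIR22HG was 4.69, 6.11 and 5.03 RPKM in the knockdown and 6.12, 5.84 and 5.44 in the controls, a difference of -0.12 (interval -0.40 to 0.16). That of MIR31HG was -0.31 (-0.94 to 0.31), lower at each replicate number.

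Genes that make, bind or remove these RNAs were counted from lists kept beside the members. With limma no gene was called at p under 0.01 among the 8 core snoRNP proteins, the 13 snoRNP assembly factors, the 14 nonsense-mediated decay factors, the 11 paraspeckle proteins, the 11 genes of the nuclear exosome and MALAT1 end processing or the 6 telomerase proteins. Their median differences were -0.14, 0.04, 0.01, -0.04, -0.01 and -0.16, against 0.01 over all genes. At an unadjusted p under 0.05 the lists held 1, 2, 1, 0, 0 and 1 genes, against 1519 of all 12527 genes. The telomerase list shares DKC1, NOP10, NHP2 and GAR1 with the core list.

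Of the 8 core proteins, which include the methyltransferase FBL and the pseudouridine synthase DKC1, 7 were below 0. Over all genes tested 52.0% were above 0. SNU13, the protein that first binds box C/D snoRNAs, was 31.5, 33.9 and 37.0 RPKM in the knockdown and 46.0, 40.5 and 44.3 in the controls (difference -0.34, adjusted p = 0.32). It passed p under 0.01 in the blocked fit (adjusted p = 0.119) and not in the fit without the block. The blocked fit called 1 of the 8 core proteins, 1 of the 13 assembly factors and 1 of the 6 telomerase proteins. It called 0 of the decay, paraspeckle and exosome lists. Over all genes the share called was 7.57%, and with so few genes these counts are not read as a property of the lists. DKC1 was 58.9, 69.8 and 59.5 RPKM against 45.3, 69.6 and 58.8, and its groups overlapped. NOLC1, a nucleolar chaperone of snoRNPs, was 91.5, 129 and 108 RPKM against 36.8, 91.6 and 57.5 (0.89, called in the blocked fit only, adjusted p = 0.113). The highest control, replicate 2, lay within 0.1 RPKM of the lowest knockdown sample. TERT, the protein of telomerase, was 2.59, 3.17 and 4.10 RPKM against 5.69, 4.19 and 5.72 (-0.54, called in the blocked fit only, adjusted p = 0.119). The TERC row was at or near 0, and whether it measures the level of that RNA was not tested. Of the 40 tested protein-coding snoRNA hosts 0 were called and 2 had an unadjusted p under 0.05, against 1519 of all 12527 genes. Their median was -0.08, with 10 above 0 and 30 below, where 52.0% of all genes were above 0. The host list shares NOP56 and DKC1 with the core list.

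Neighbours of the members were also counted. Of 24 tested genes beside or opposite a member, limma called 0 (median -0.12). At an unadjusted p under 0.05 there were 3, against 1519 of all 12527 genes. With the replicate block 3 of the 24, USP46, HOXC11 and MYC, passed p under 0.01, against 7.57% of all genes, and all 3 were lower. With so few genes, the share is not read as a property of the neighbours. MYC, the transcription factor gene beside PVT1, was 33.8, 49.1 and 38.2 RPKM against 57.1, 58.5 and 46.7 (-0.42, blocked adjusted p = 0.123). PVT1 was 6.12, 6.67 and 4.02 RPKM against 7.32, 7.51 and 6.14 (-0.29, interval -0.69 to 0.10), also lower at each replicate number. Of 28 tested coding genes with the start nearest to a member, a list added after the values were seen, 1 was called, against 3.13% of all genes. It was EPB41L1, which was higher. It encodes a membrane skeleton protein and its start lies 40544 bases from that of NORAD. EPB41L1 was 5.86, 4.64 and 7.73 RPKM in the knockdown and 1.62, 3.12 and 3.57 in the controls, with no overlap. FOXE3, the coding gene with the start nearest to LINC01389, was at most 0.192 RPKM.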

How the data were processed

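RNA-seq of 6 PANC-1 samples was analysed, 3 with CD73 siRNA and 3 with negative control, grouped by their labels. The study describes them as separate knockdown experiments. The authors deposited 1 table per sample with RPKM values for 30735 Ensembl genes. Per the labels' processing notes, bcl2fastq, Bowtie2 2.2.3, HTSeq 0.6.0 and build hg38 were named. The annotation and strand setting are not given in the sources used here.

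Symbols came from the reference name table, and positions from GENCODE release 29, which lacked 132 identifiers. Multiplied by merged exon length, 94.9% to 95.0% of low values (under 1000 reads) were whole reads within 0.01. These reads describe precision only.

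Values were compared as log2(RPKM + 1), which understates changes of low genes, in the 12527 genes at 1 RPKM or more in 3 or more samples, with limma 3.58.1 (lmFit, eBayes with trend) in R 4.3.3. Calls used an unadjusted p under 0.01, the study's threshold, and Benjamini-Hochberg adjustment ran over all genes tested. Same-numbered samples deviated together (r = 0.197, 0.481 and 0.553 over genes), and the fit with the number as a block was an alternative. Whether the numbers pair the samples is not given in the sources used here. Members, lists and tests were chosen with earlier results of these data known. Values in every sample were given for members called at p under 0.01, those with a mean of at least 20 RPKM, the 5 largest differences among members without overlap, and MALAT1, NEAT1, GAS5, NORAD and H19. Others given so were chosen after their values were seen. The fit was tested on simulated data. One gene of the list of NORAD partners is not reported here.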

Additional observations from a re-analysis of the deposited data

How the results depend on the processing

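Over 12527 genes, 392 were called, 948 with the replicate number as a block, and 70, 532 and 134 without both samples numbered 1, 2 or 3 (chosen after seeing the data). Leaving out single samples gave 116 to 792 genes and 1 to 4 members. The members called stood at 2 with the block, the pseudocount of 0.1 RPKM, no filter, equal medians and no trend. The block changed no other call among the members. The count was 1 (NORAD) with at least 1 RPKM required in all 6 samples, since LINC01389 was then filtered out, and 1 (LINC01389) without both samples numbered 1 or both numbered 3. Without both numbered 2 it was 3, with SNHG16 lower (-0.46). The difference of NORAD was 0.38 without both numbered 1, 0.59 without both numbered 3 and 0.40 to 0.63 with single samples left out. In fits with the block, 10 members differed by replicate number (9.27% of all genes). There were 6 with no filter on low values (3.05%), 6 without CD73 siRNA replicate 2 (9.99%), 5 without CD73 siRNA replicate 3 (4.0%) or negative control replicate 3 (3.95%), and 14 and 12 without CD73 siRNA or negative control replicate 1 (16.6% and 12.8%). Without negative control replicate 2 there were 9 (7.44%), and NEAT1 and SNHG8 were not among them. Equal medians gave 8 (8.97%) and no trend gave 7 (8.1%). The causes of these shifts were not tested.

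Small differences changed sign. With single samples left out they ran from -0.35 to 0.15 for GAS5, -0.58 to 0.26 for H19, -0.17 to 0.15 for MALAT1, -0.17 to 0.25 for NEAT1, -0.25 to 0.020 for SNHG1 and -0.22 to 0.10 for SNHG32. NEAT1 was -0.011 with equal medians. Without both samples numbered 1, H19 was 0.11, NEAT1 -0.071 and SNHG32 0.0093, and without both numbered 2 MALAT1 was -0.14. LINC01389, MEG3, SNHG16, SNHG26 and SNHG30 kept their direction in every fit that tested them. Depth limits LINC01389, SNHG9, MIR31HG and the members below the filter, whose values rest on few reads.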
